A study of Bos taurus with 23 samples.

Results

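The genes described here are 62 genes that were close to silent in unstimulated bovine endometrium and higher after culture with interferon tau. They were picked by their measured levels, as the reads of a gene per 1000000 counted reads of the library (CPM). A gene was taken when its mean over the 6 medium-only libraries was under 1 CPM, its mean over the 6 interferon tau libraries was at least 0.5 CPM and at least 2 times the medium-only mean, and the interferon tau library was above the medium-only library in all 6 pairs that carry the same uterus number. Of 18897 genes in the table, 62 met every condition.

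The explants were pieces of intercaruncular endometrium, the gland-bearing lining between the placental attachment sites, cut from bovine uteri in the mid-luteal phase and kept in RPMI medium for a 6 h treatment. A Day 15 conceptus of either kind was cultured with the explant: AI conceptuses, which had grown after transfer of blastocysts derived in vivo (n = 4), and IVF conceptuses, which had grown after transfer of blastocysts produced in vitro (n = 7). For the IFNT group the medium held ovine interferon tau, made as a recombinant protein, at 100 ng/mL (n = 6), and the Control group had no addition to its medium (n = 6). The conceptuses were typed as Male (n = 6, of which 5 were IVF) or Female (n = 5, of which 2 were IVF). All 4 AI titles carry the same additional code and the 7 IVF titles carry 5 codes, whose meaning the labels do not give, so the number of independent AI sources may be under 4. Titles also carry a uterus number, 7 in all, and libraries are named below by treatment and uterus number.

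Interferon tau is a type I interferon that the elongating ruminant conceptus secretes before it attaches. It binds the type I interferon receptor on the endometrium, and phosphorylated STAT proteins then carry the signal to the nucleus and raise a large set of interferon-stimulated genes, many of which have antiviral functions. In ruminants this signal also restrains the luteolytic release of prostaglandin, by which the corpus luteum is kept and pregnancy is recognised. Interferon-stimulated genes include many that are almost untranscribed at rest.

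The identifiers in the table are not paired with gene symbols in the sources used here, so no role can be given to a single gene. The 62 genes are numbered from member 1 to member 62 in falling order of their mean CPM over the 11 conceptus libraries, which the selection did not use. The 2 highest in that order are ENSBTAG00000034349 (member 1) and ENSBTAG00000012894 (member 2). Other members described singly were picked after their values had been seen. In bulk tissue, a lower level can mean fewer cells of a type or less RNA per cell, and these cannot be told apart. Without gene symbols, no marker list could be read for the labelled tissue or for other cell types.

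Libraries held 19461678 to 36730378 reads, so 1 CPM corresponded to 19.5 to 36.7 reads. Libraries of the same uterus number resembled each other: their deviations from the treatment means correlated in all 30 such pairs, with Pearson's r across genes between 0.15 and 0.71, and 20 of 22 libraries were closest to one of their own number. The 2 exceptions were IFNT 2 and IVF 5, which were closest to each other (r = 0.49). Results that rest on these libraries are given with and without them.

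With a conceptus, most of the 62 genes stood well above their Control level and near or below their IFNT level. The mean over the 11 conceptus libraries lay between the Control mean and the IFNT mean for 53 members, above the IFNT mean for 7 and below the Control mean for 2, members 51 and 56. The selection held Control low and IFNT above it, which favours a conceptus mean between them. These positions are therefore a description, and the share of all genes with such means was not counted. A mean above 1 CPM was reached by 41 members with AI, 42 with IVF and 51 with IFNT, against 0 in Control, where the selection required it. Together the 62 genes accounted for 688 CPM ± 162 (SD, n = 4) in AI libraries, 635 CPM ± 128 (SD, n = 7) in IVF libraries, 790 CPM ± 252 (SD, n = 6) in IFNT libraries and 30.1 CPM ± 4.00 (SD, n = 6) in Control libraries. The 5 highest members supplied 71.6% of that sum in the conceptus libraries, so the sum mostly follows those 5. The number of members without any read ranged between 0 and 2 in AI libraries, between 0 and 2 in IVF libraries, was 0 in each IFNT library, and ranged between 1 and 11 in Control libraries. Near-silent describes the Control level better than silent does: 32 of the 62 members had a Control mean under 0.5 CPM, and the rest lay between 0.5 and 1 CPM.

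**Figure D1:**
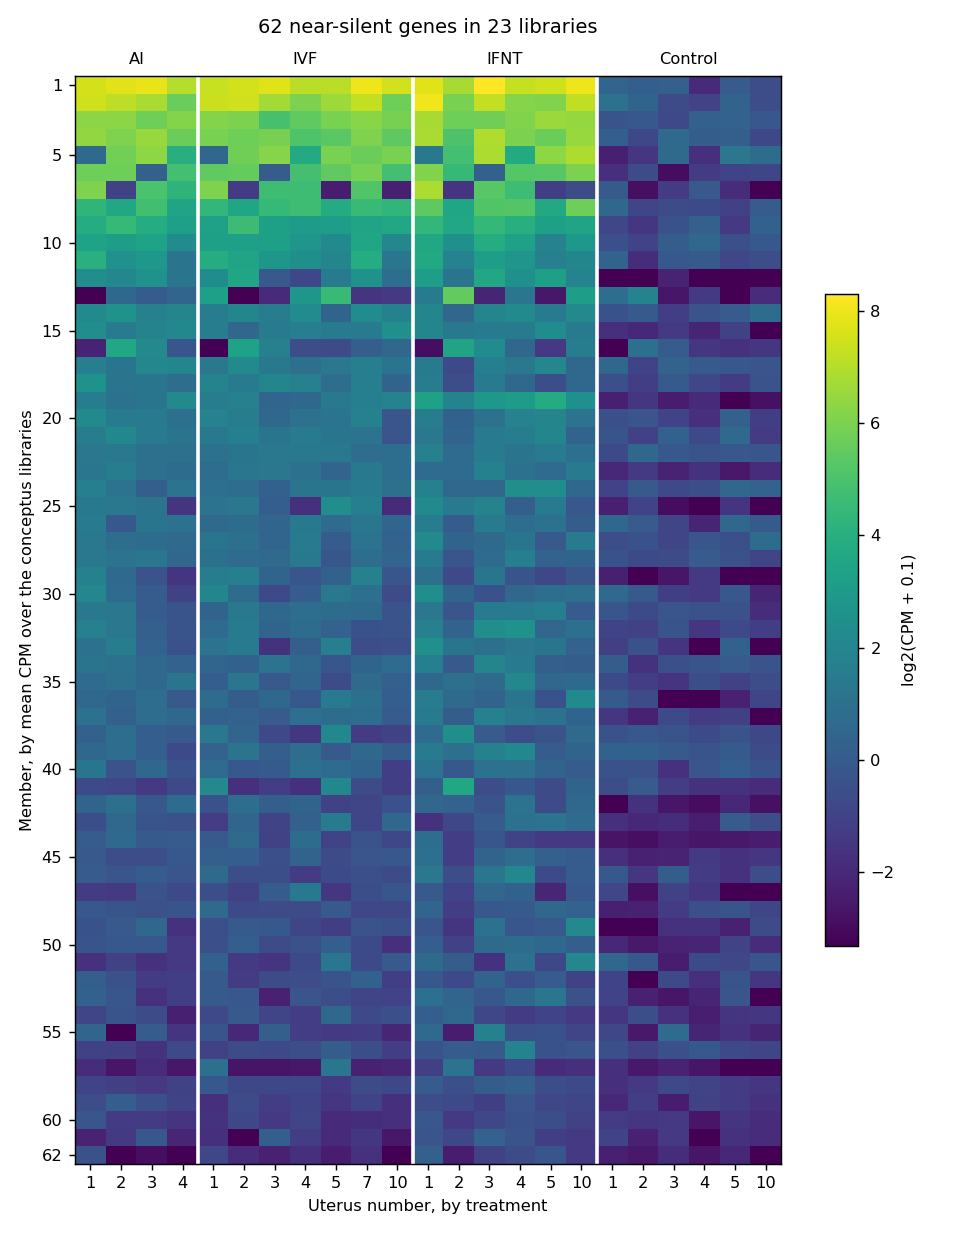
Level of each of the 62 genes (rows, member 1 at the top) in each of the 23 libraries (columns, grouped by treatment and ordered by uterus number), as log2(CPM + 0.1). The 9 top rows are bright in AI, IVF and IFNT libraries except for dark cells of members 5, 6 and 7 in certain uteri, and the Control columns are dark throughout.

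The selection contrast itself is given as a description only. The ratio of the IFNT mean to the Control mean ran between 2.01 and 339 with a median of 5.54. It was at least 10 for 18 members and under 4 for 26. The first group had a large rise of the mean, and the second a modest rise on a low level. A high ratio did not mean a high level in each IFNT library. Member 13, at a ratio of 10.1, had 0.069 CPM in IFNT 5 and 45.5 CPM in IFNT 2, and member 7 had 0.246 CPM in IFNT 2. In edgeR's quasi-likelihood test 41 members had a Benjamini-Hochberg adjusted p under 0.05 for IFNT against Control, all higher, where 3.07% of all genes tested were called higher. Nothing is read from that count, since this contrast chose the genes.

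Several genes sat close to the limits of the selection. Member 5 entered with a Control mean of 0.999993 CPM and member 2 with 0.983 CPM, and the nearest genes outside had 1.03 and 1.05 CPM. Member 59 entered with an IFNT mean of 0.505 CPM and member 62 with 0.524 CPM, against 0.494 and 0.483 CPM for the nearest genes outside. The lowest ratios inside were 2.01 for member 59 and 2.15 for member 52, and the highest outside were 1.95 and 1.92.

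The size of the response differed widely within the set. Over the 11 conceptus libraries 9 members averaged at least 10 CPM, 33 averaged between 1 and 10 CPM, and 20 stayed under 1 CPM. Member 1 had 185, 221, 243 and 127 CPM in the AI libraries of uteri 1, 2, 3 and 4. In IVF libraries its lowest, median and highest levels were 139, 183 and 255 CPM, in IFNT libraries 109, 199 and 316 CPM, and in Control libraries 0.162, 0.962 and 1.28 CPM. Each treated library was far above each Control library, and the 3 treatments overlapped one another. For AI against Control its log2 fold change was 7.97 ± 0.42 (SE, edgeR adjusted p = 3.54e-12), and for IVF against Control 7.91 ± 0.41 (SE, edgeR adjusted p = 1.87e-12).

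Member 2 had 176, 141, 114 and 50.2 CPM in the AI libraries of uteri 1 to 4. Its lowest, median and highest levels were 53.5, 103 and 175 CPM in IVF libraries, 63.1, 109 and 267 CPM in IFNT libraries, and 0.421, 0.887 and 1.95 CPM in Control libraries. The pattern was that of member 1 at a lower level. The log2 fold change was 7.08 ± 0.54 for AI against Control (SE, edgeR adjusted p = 1.85e-09) and 7.04 ± 0.53 for IVF against Control (SE, edgeR adjusted p = 1.15e-09).

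Members 3, 4, 8 and 9 completed the group of high and evenly raised genes. Member 3 averaged 70.4 CPM ± 12.3 in AI, 58.03 CPM ± 15.5 in IVF, 77.8 CPM ± 22.8 in IFNT and 0.848 CPM ± 0.251 in Control libraries (SD, n = 4, 7, 6 and 6). Member 4 averaged 73.8 CPM ± 18.5 in AI, 51.4 CPM ± 12.6 in IVF, 79.4 CPM ± 35.0 in IFNT and 0.909 CPM ± 0.376 in Control libraries. Member 8 averaged 17.6 CPM ± 7.47 in AI, 19.6 CPM ± 5.19 in IVF, 31.9 CPM ± 16.3 in IFNT and 0.689 CPM ± 0.367 in Control libraries. In none of these genes did a conceptus library fall as low as the highest Control library. Member 9 showed the same at 15.1 CPM ± 5.03 in AI, 12.2 CPM ± 5.88 in IVF, 15.1 CPM ± 4.88 in IFNT and 0.649 CPM ± 0.389 in Control libraries.

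Member 12 came closest to true silence. It had 164, 127, 175 and 62 reads in the AI libraries of uteri 1 to 4, between 14 and 382 reads in IVF libraries and between 51 and 391 reads in IFNT libraries. In the Control libraries it had 0 reads in all but Control 3, which had 4. Its log2 fold changes of 7.36 ± 0.97 for AI and 7.19 ± 0.94 for IVF against Control (SE, edgeR adjusted p = 1.43e-05 and 9.99e-06) therefore rest on 4 Control reads. Means were 4.42 CPM with AI, 3.94 CPM with IVF and 7.03 CPM with IFNT, against 0.021 CPM in Control.

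**Figure D2:**
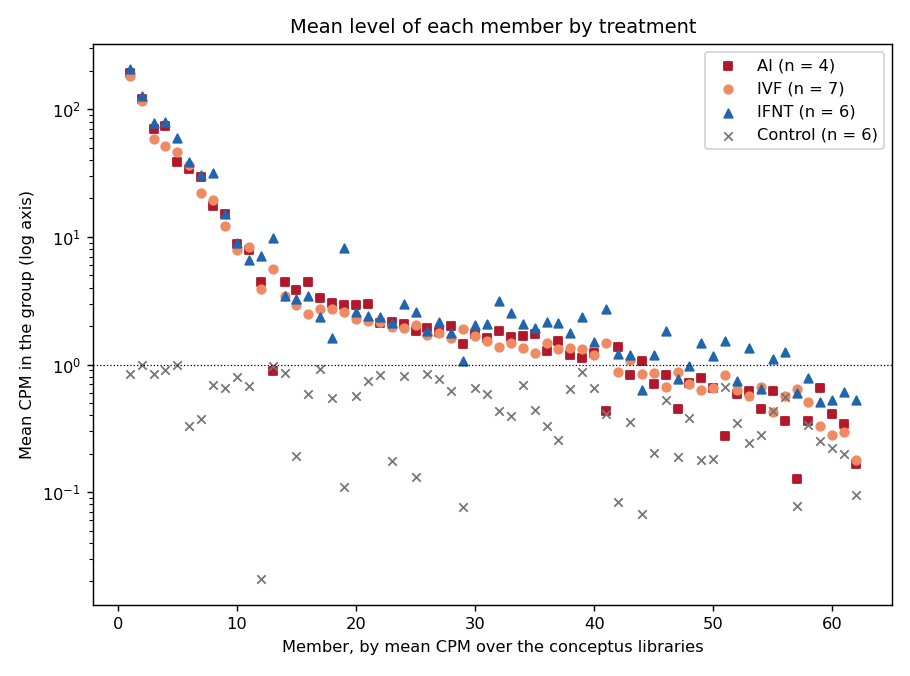
Mean CPM (log axis) of each member in AI (n = 4), IVF (n = 7), IFNT (n = 6) and Control (n = 6) libraries, with members ordered by their mean over the conceptus libraries and a dotted line at 1 CPM. AI, IVF and IFNT means lie close together for the highest members, and members 13, 41, 51, 56 and 57 show the AI mean well below the IFNT mean.

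The comparisons of AI and IVF with Control ask whether a living conceptus raises these genes as the purified interferon does. Their Control libraries are the ones that the selection required to be low, so a count of higher members is partly set by the selection, and both comparisons share those libraries. All 62 members passed the filter on low counts, which removes genes with too few reads for a test. Of these, 58 would have had enough libraries over its limit without the IFNT libraries, and 4 passed only with them. The 4 are members 57, 60, 61 and 62. They stay in the counts below, and their own values are a description only, since the selected IFNT levels brought them into the test.

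With AI conceptuses 31 of 62 members were called higher than Control and 0 lower (edgeR, adjusted p under 0.05), where 2.75% of all genes tested were called higher. With IVF conceptuses 33 of 62 were called higher and 0 lower, where 2.92% of all genes were. The log2 fold changes of the called members ran between 1.43 and 7.97 with a median of 3.70 for AI, and between 1.39 and 7.91 with a median of 3.42 for IVF. Over all 62 members the median log2 fold change was 1.95 for AI and 1.93 for IVF, against medians of -0.0014 and 0.0147 over all genes tested. A set of 30 members was called in both comparisons, 4 in one of them and 28 in neither. The 4 were member 59 for AI and members 24, 31 and 36 for IVF, and the test of AI against IVF itself called 0 of these members. With the uterus as a block, 41 members were called higher for AI, where 7.45% of all genes were, and 43 for IVF, where 5.21% were, and members 24, 31 and 36 were then called for AI as well (adjusted p = 0.0124, 0.0424 and 0.0393). AI 4 had the lowest sum over the 62 genes among AI libraries, at 448 CPM against 746 to 802 CPM in the other 3, and without AI 4 the AI count was 32, where 2.59% of all genes were called higher.

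The calls are listed here by the level of the gene over the conceptus libraries. Those libraries also entered the tests, and the selection held each Control mean under 1 CPM. More calls among the higher members were thus largely set in advance, and nothing is read from the trend. The share of all genes called at each level was not counted. Among the 9 members at 10 CPM or more, 8 were called for AI and 8 for IVF. Among the 33 members between 1 and 10 CPM, 19 were called for AI and 22 for IVF. Among the 20 members under 1 CPM, 4 were called for AI and 3 for IVF. The unadjusted p was under 0.05 for 47 members in AI against Control, beside 12.2% of all genes, and for 49 in IVF against Control, beside 11.3% of all genes.

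Members 15, 19 and 29 show the middle range. Member 15 had 5.03, 2.58, 3.57 and 4.20 CPM in AI 1 to AI 4, a median of 2.61 CPM in IVF, 2.80 CPM in IFNT and 0.177 CPM in Control libraries, with a log2 fold change of 4.38 ± 0.46 for AI against Control (SE, edgeR adjusted p = 4.50e-07). Its lowest treated library, at 1.31 CPM, was above its highest Control library, at 0.391 CPM. Member 29 had 3.33, 1.48, 0.679 and 0.247 CPM in AI 1 to AI 4, medians of 1.251 CPM in IVF, 0.724 CPM in IFNT and 0.031 CPM in Control libraries, and a log2 fold change of 4.62 ± 0.81 for IVF against Control (SE, edgeR adjusted p = 5.44e-04). AI 4 was below the highest Control library, at 0.292 CPM, so its groups overlapped.

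Without any model, 20 of 62 members had all 11 conceptus libraries above the highest of the 6 Control libraries, where 1.79% of all genes tested did. Against the Control explant of the same uterus, 45 members were higher in all 4 AI explants, where 15.4% of all genes were, and 39 in all 6 IVF explants that have such a partner, where 4.42% were. The low Control values that the selection required enter these counts too.

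**Figure D3:**
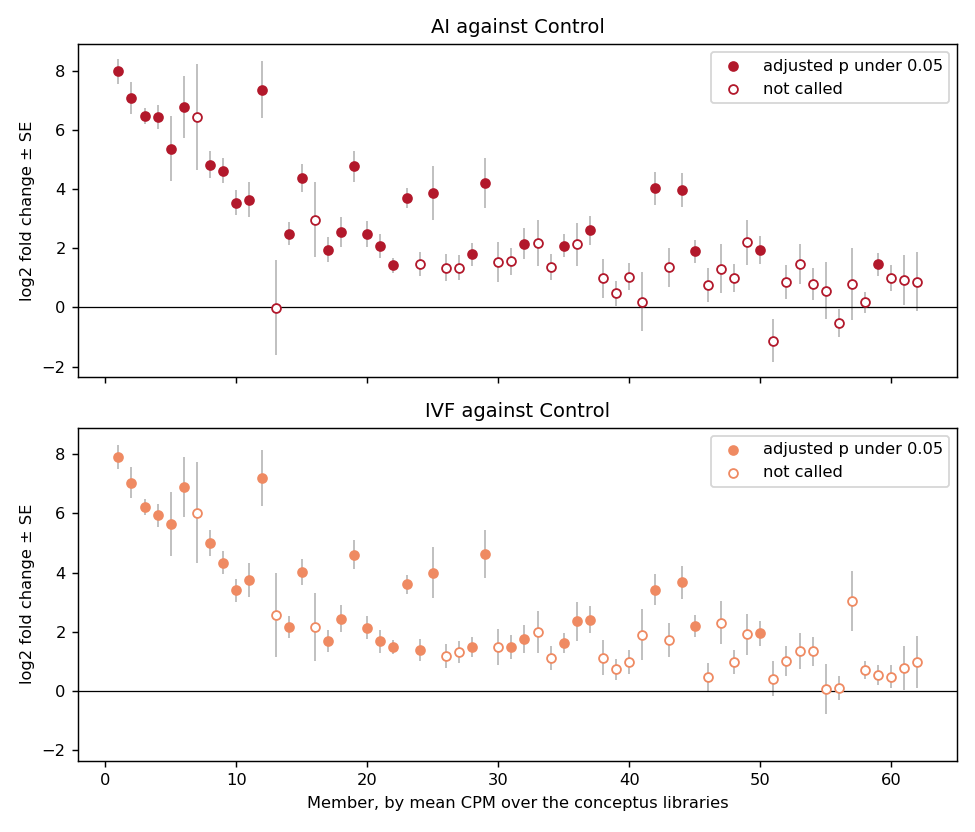
Log2 fold change ± SE (edgeR) of each member for AI against Control (upper) and IVF against Control (lower), with filled points for members with an adjusted p under 0.05. Points run between about 8 for member 1 and values near 0 for low members, with wide error bars for members 5, 6, 7, 13 and 16.

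Members 5, 6, 7 and 16 did not reach like levels in all uteri. For members 5, 6 and 16 the Control level differed between uteri too, so unlike levels need not mean unlike rises over Control. Their levels changed by more than 10-fold between uteri, and AI, IVF and IFNT explants of the same uterus were high or low together. Member 7 had 67.4, 0.387, 32.0 and 19.0 CPM in AI 1, 2, 3 and 4. In the IVF libraries of uteri 1, 2, 3, 4, 5, 7 and 10 it had 66.1, 0.321, 26.2, 26.1, 0.085, 35.4 and 0.103 CPM. In the IFNT libraries of uteri 1, 2, 3, 4, 5 and 10 it had 119, 0.246, 39.4, 25.6, 0.344 and 0.552 CPM, and in the Control libraries of those uteri 0.874, 0.037, 0.311, 0.842, 0.178 and 0 CPM. Uteri 2, 5 and 10 stayed under 1 CPM with every treatment, at 2 to 14 reads in treated libraries, and uteri 1, 3, 4 and 7 reached 19 CPM or more with every treatment they received.

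Member 6 was low in another uterus. In uterus 3 it had 30 reads in AI, 34 in IVF, 35 in IFNT and 1 in Control, or 1.07, 0.945, 1.12 and 0.031 CPM. In the remaining uteri its levels ran between 28.3 and 53.9 CPM in AI, between 28.5 and 62.6 CPM in IVF, between 22.3 and 67.6 CPM in IFNT, and between 0.206 and 0.556 CPM in Control libraries. Uterus 3 was thus far below all others in each treated group, and it was also the lowest Control library.

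Member 5 was lowest in uterus 1, with 47 reads in AI, 41 in IVF, 71 in IFNT and 2 in Control, or 1.48, 1.34, 2.52 and 0.103 CPM. Uterus 4 was intermediate at 15.7 CPM with AI, 13.7 CPM with IVF and 13.9 CPM with IFNT, against 0.194 CPM in Control. The other uteri had between 28.3 and 118 CPM in treated libraries and between 0.259 and 2.31 CPM in Control libraries.

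Member 16 was almost absent from uterus 1, with 4 reads in AI, 0 in IVF, 1 in IFNT and 0 in Control. It was highest in uterus 2, with 387 reads in AI, 368 in IVF and 268 in IFNT, against 50 in Control, which was also its highest Control value. In falling order, uteri 2, 3, 10, 4, 5 and 1 followed each other in IVF, in IFNT and in Control libraries alike, leaving out uterus 7, which has an IVF library only.

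**Figure D4:**
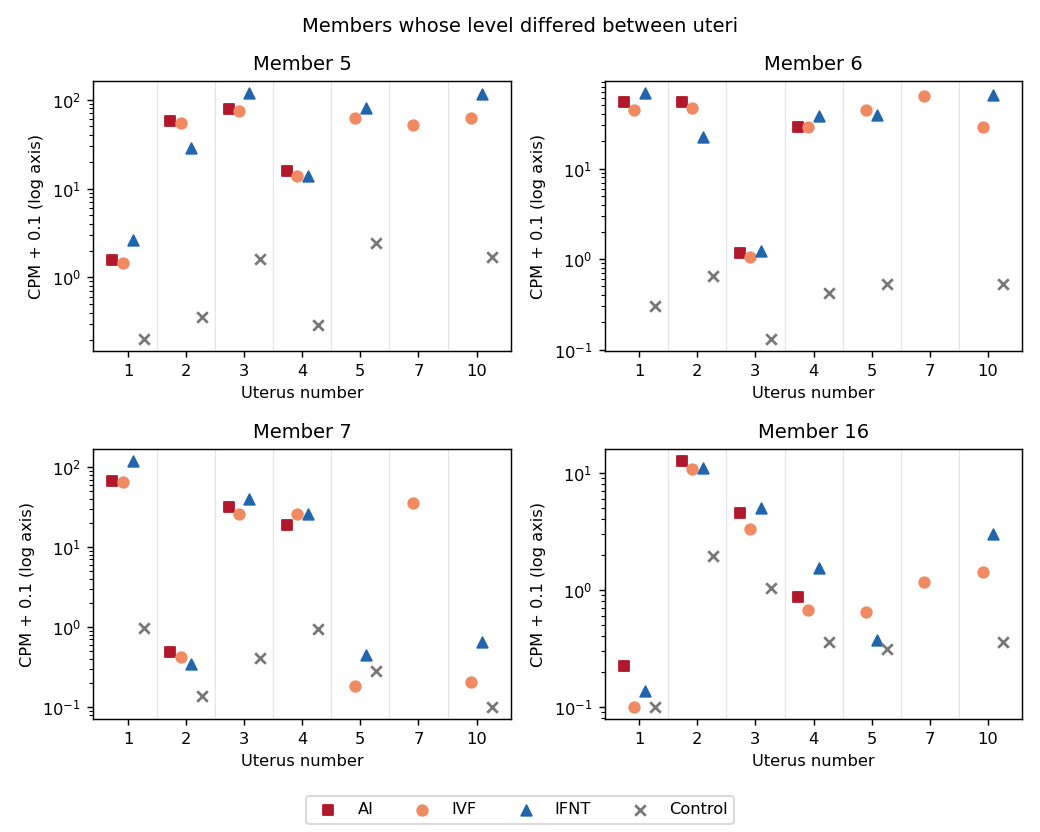
CPM + 0.1 (log axis) of members 5, 6, 7 and 16 by uterus number, with 1 point for each library and a marker for each treatment. Within a uterus the AI, IVF and IFNT points lie close together, at or near the Control level for member 7 in uteri 2, 5 and 10 and far above it in the others.

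The uterus pattern was tested in the AI and IVF libraries of uteri 1, 2, 3 and 4, which the selection did not use. The test, chosen after the values had been seen, asks in edgeR whether the uterus number adds to a model with AI and IVF. It called 7 of the 61 members tested, where 5.60% of all genes tested were called. The unadjusted p was under 0.05 for 17 members, 27.9% of those tested, beside 27.2% of all genes, so by that measure the members as a group did not stand apart from the table. The called members were member 5 (adjusted p = 0.00058), member 6 (0.000665), member 7 (0.00116), member 16 (0.00914), member 2 (0.0197), member 25 (0.0351) and member 4 (0.0377). The number of calls depended on single libraries, for all genes as well as for the members. It was 17 members without AI 1, where 31.3% of all genes were called, and 16 without IVF 1, where 26.2% were. It was 4 without AI 4 or IVF 4 and 3 without AI 2, AI 3, IVF 2 or IVF 3, where between 0.297% and 1.29% of all genes were called. DESeq2 called 14 members, where it called 21.5% of all genes. The result is therefore about single genes: members 5, 6 and 7 were called in each of the 8 fits that left out 1 library, and member 16 in 4 of them.

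The size of the uterus difference was largest in members 5, 6, 7 and 16 among the 7 called members. The highest of the 4 uterus means over AI and IVF was 54.3 times the lowest for member 5, 49.9 times for member 6, 189 times for member 7 and 185 times for member 16. It was 10.7 times for member 25, 2.98 times for member 2 and 1.79 times for member 4. Over members 1 to 9 the median ratio was 2.62, beside a median of 1.40 over the 9052 genes in the table at 10 CPM or more. Within uteri 1 to 4, the AI and IVF values of member 5 differed by between 0.057 and 0.187 on the log2 scale, with AI higher in all 4.

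These uterus differences entered the tests against Control. Member 7 had a log2 fold change of 6.43 ± 1.79 for AI against Control (SE, edgeR adjusted p = 0.0504) and was not called, whereas with the uterus as a block the value was 5.55 ± 0.55 (adjusted p = 1.69e-06). For IVF against Control it was 6.03 ± 1.71 (SE, edgeR adjusted p = 0.0547), and 5.48 ± 0.54 with the block (adjusted p = 1.36e-06). Member 16 likewise had 2.96 ± 1.27 for AI (edgeR adjusted p = 0.317) and 2.43 ± 0.40 with the block (adjusted p = 6.72e-04), and for IVF 2.17 ± 1.15 (edgeR adjusted p = 0.512) and 1.99 ± 0.36 with the block (adjusted p = 0.00164). The cause of these differences between uteri was not tested.

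Members 13, 38, 41 and 57 were highest in the same 3 libraries, IFNT 2, IVF 1 and IVF 5, out of the 17 treated ones. These are 3 different uteri and 2 treatments. How many of all genes had these libraries highest was not counted, so the order is given as a description only. Member 41 had 4.37 CPM in IVF 1, 4.25 CPM in IVF 5 and 12.2 CPM in IFNT 2, and the other 14 treated libraries had at most 1.22 CPM, with a median of 0.499 CPM. Its Control libraries lay between 0.174 and 0.926 CPM, so outside these 3 libraries treated and Control values overlapped.

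Member 13 had 9.27 CPM in IVF 1, 22.4 CPM in IVF 5 and 45.5 CPM in IFNT 2, and the other 14 treated libraries had at most 8.75 CPM, with a median of 0.602 CPM. Its highest Control library, Control 2, had 3.59 CPM. Member 38 had 2.45, 4.21 and 5.32 CPM in IVF 1, IVF 5 and IFNT 2, and at most 1.74 CPM elsewhere among treated libraries. Member 57 had 1.79, 2.30 and 2.05 CPM in those libraries, and at most 0.504 CPM in the other 14. None of these 4 genes was called for AI or IVF against Control, and for member 13 the log2 fold change of IVF against Control was 2.58 ± 1.41 (SE, edgeR adjusted p = 0.537).

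IFNT 2 and IVF 5 are the libraries named above that resembled each other more than their own uteri (r = 0.49). IVF 1 was closest to a library of its own uterus, and its correlation was 0.36 with IVF 5 and 0.19 with IFNT 2. Without uterus 2, member 38 (IFNT mean 1.06 CPM and Control mean 0.611 CPM) and member 57 (0.303 and 0.079 CPM) no longer met the selection, and members 13 (2.76 and 0.455 CPM) and 41 (0.839 and 0.304 CPM) still did. Without IVF 1 and IVF 5, the IVF mean was 1.53 CPM ± 3.03 for member 13, 0.546 CPM ± 0.423 for member 38, 0.326 CPM ± 0.140 for member 41 and 0.0855 CPM ± 0.0363 for member 57 (SD, n = 5). The count of members called higher with IVF than Control was then 29 of 61 tested, where 2.79% of all genes were called higher. What these 3 explants share was not tested.

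**Figure D5:**
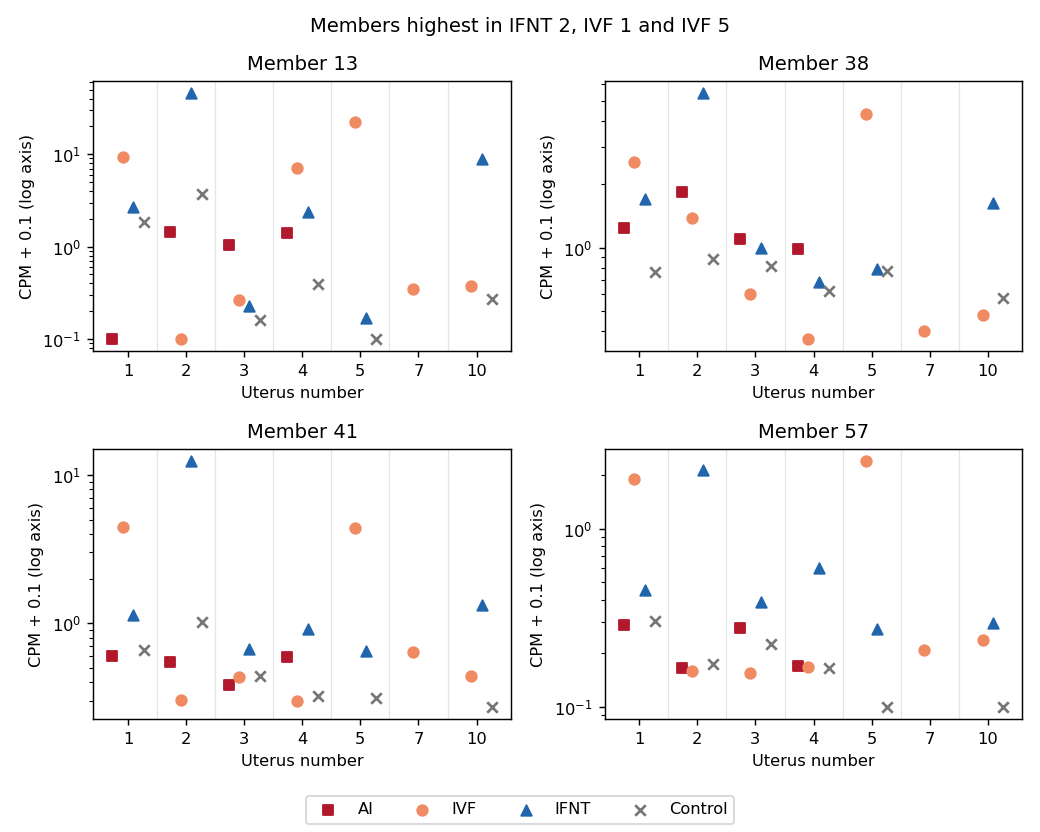
CPM + 0.1 (log axis) of members 13, 38, 41 and 57 by uterus number, with 1 point for each library and a marker for each treatment. IFNT 2, IVF 1 and IVF 5 are the 3 highest treated libraries in each panel.

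Set against IFNT, which asks how far a conceptus differs from the interferon alone, few members stood apart. The ratio of the mean over the 11 conceptus libraries to the IFNT mean had a median of 0.761 and ran between 0.332 and 1.76. It was under 0.5 for 11 members and above 1 for 7, which were members 11, 14, 17, 18, 21, 29 and 44. By origin the median ratio was 0.778 for AI and 0.732 for IVF. The IFNT libraries were chosen to be high, which lowers such ratios, so no direction is read from these medians.

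Without the uterus block, edgeR called no member in either test against IFNT. For AI against IFNT 0 members were called by edgeR, as were 0% of all genes. The unadjusted p was under 0.05 for 6 members (9.68%), beside 9.82% of all genes. DESeq2 called 0 members there, where it called 24 of 15227 genes, 6 of them lower. For IVF against IFNT 0 members were called by edgeR, again as were 0% of all genes. There 8 members (12.9%) had an unadjusted p under 0.05, beside 5.69% of all genes. The selection required high IFNT values, which can add small p-values in both tests against IFNT, so nothing is read from these shares. DESeq2, also without the block, called 1 member lower with IVF, member 19, where it called 10 of 15227 genes, 4 of them lower.

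With the uterus as a block, 2 of 62 members were called lower with AI than with IFNT, a share near the 2.04% of all genes tested that were called lower. In that fit 0 members were called higher, where 747 of 15227 genes were. With the block and without IFNT 4, 0 members were called, where 128 of 15210 genes were called lower and 395 higher. Since the selection required high IFNT values, no direction is read from these calls, and the values are given as a description. The 2 members called lower with the block are ENSBTAG00000002414 (member 56) and ENSBTAG00000033316 (member 58). Member 56 had 0.377, 0.355, 0.214 and 0.494 CPM in AI 1 to AI 4, lowest, median and highest levels of 0.654, 0.807 and 3.61 CPM in IFNT, and of 0.371, 0.557 and 0.810 CPM in Control libraries. All 4 AI libraries were below all IFNT libraries and within or below the Control range. The log2 fold change was -1.79 ± 0.48 without the block (SE, edgeR adjusted p = 0.251) and -1.70 ± 0.41 with it (adjusted p = 0.0221). The 3.61 CPM of IFNT 4 carried much of it, since the next IFNT library had 0.942 CPM. Without IFNT 4 the value was -1.08 without the block (edgeR adjusted p = 0.402) and -1.24 with it (adjusted p = 0.0573).

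Member 58 had 0.409, 0.355, 0.286 and 0.388 CPM in AI 1 to AI 4, against 0.512, 0.769 and 1.09 CPM as the lowest, median and highest IFNT library. Its AI values lay inside the Control range of 0.206 to 0.498 CPM. The log2 fold change was -1.11 ± 0.35 without the block (SE, edgeR adjusted p = 0.298) and -1.24 ± 0.32 with it (adjusted p = 0.0289), and -1.14 with the block and without IFNT 4 (adjusted p = 0.0756). Both members are among the lowest of the set, at fewer than 20 reads in each AI library.

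Member 19, the one that DESeq2 called, lay between Control and IFNT in most conceptus libraries. It had 2.93, 1.97, 2.22 and 4.69 CPM in AI 1 to AI 4, lowest, median and highest levels of 1.28, 2.94 and 3.62 CPM in IVF, 3.56, 7.75 and 14.3 CPM in IFNT, and 0, 0.098 and 0.259 CPM in Control libraries. All conceptus libraries were above all Control libraries, and all but AI 4 and IVF 10 were below all IFNT libraries. Its log2 fold change against Control was 4.76 ± 0.51 for AI (SE, edgeR adjusted p = 5.78e-07) and 4.61 ± 0.48 for IVF (SE, edgeR adjusted p = 3.78e-07). Against IFNT it was -1.43 ± 0.44 for AI (SE, edgeR adjusted p = 0.267) and -1.59 ± 0.37 for IVF (SE, edgeR adjusted p = 0.655), where DESeq2 gave an adjusted p of 0.00752.

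Member 18 showed the highest ratio of conceptus to IFNT mean, at 1.76. It had 6.10, 2.10, 2.18 and 1.66 CPM in AI 1 to AI 4, a median of 2.99 CPM in IVF, 1.41 CPM in IFNT and 0.535 CPM in Control libraries. The groups with conceptus and with IFNT overlapped, and its log2 fold change against IFNT was 0.89 ± 0.48 for AI (SE, edgeR adjusted p = 0.561) and 0.80 ± 0.43 for IVF (SE, edgeR adjusted p = 0.893). Member 44 had 0.944, 1.48, 0.893 and 0.917 CPM in AI 1 to AI 4, lowest, median and highest levels of 0.389, 0.681 and 1.63 CPM in IVF, of 0.275, 0.377 and 1.74 CPM in IFNT, and of 0.037, 0.068 and 0.0933 CPM in Control libraries. All treated libraries were above all Control libraries in this gene, and 5 of the 6 IFNT libraries were below all 4 AI libraries, with IFNT 1 above them.

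AI and IVF conceptuses, the comparison of embryo origin, used no library of the selection. By edgeR 0 members were called, as were 0% of all genes, 2 members (3.23%) had an unadjusted p under 0.05, beside 2.25% of all genes, and DESeq2 called 0. The median log2 fold change of AI over IVF was 0.083 over the 62 members and -0.011 over all genes. In explants of the same uterus AI was above IVF in all 4 pairs for 7 members, where 10.3% of all genes were, and below in all 4 for 4 members, where 4.15% were, so both counts were near those of the whole table. Member 59 had the smallest p, with 0.566, 0.999, 0.607 and 0.423 CPM in AI 1 to AI 4 and lowest, median and highest levels of 0.196, 0.334 and 0.526 CPM in IVF libraries. Its log2 fold change was 0.92 ± 0.36 (SE, edgeR adjusted p = 1.00), and the groups overlapped.

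For Male against Female conceptuses 0 members were called by edgeR, as were 0% of all genes, 8 members (12.9%) had an unadjusted p under 0.05, beside 7.21% of all genes, and DESeq2 called 0. The 62 genes summed to 616 CPM ± 138 (SD, n = 6) with Male and 700 CPM ± 132 (SD, n = 5) with Female conceptuses. Among the 8 were members 41 and 57, at log2 fold changes of 2.34 ± 0.89 and 2.63 ± 0.98 (SE, edgeR adjusted p = 0.642 each). IVF 1 and IVF 5, in which these genes were highest among conceptus libraries, are both Male. Member 57 passed the filter on low counts only through the IFNT libraries, so its value is a description. Without IVF 1 and IVF 5, 5 of 61 members tested had an unadjusted p under 0.05, beside 379 of 15149 genes. In that fit 0 members were called, as were 0 of all genes.

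The slope on conceptus length, over AI conceptuses of 26.1 mm ± 4.66 (SD, n = 4) and IVF conceptuses of 25.4 mm ± 15.2 (SD, n = 7), called 0 members by edgeR, as it did 0% of all genes. Here 0 members had an unadjusted p under 0.05, beside 301 of all genes, and DESeq2 called 0. The IVF conceptuses ran between 8 and 54 mm. The shortest, on IVF 2, gave a summed level of 727 CPM for the 62 genes and the longest, on IVF 7, gave 831 CPM.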

How the data were processed

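RNA of 23 explants was sequenced after a stranded TruSeq mRNA preparation, per the labels' protocols. The authors deposited read counts per gene, whole numbers without normalization. Per the submitters' processing notes, UMD3.1 was the genome build and edgeR, StringTie and HISAT2 were used, with no versions or roles stated. The sources used here do not give the counting tool, the annotation release or the strand setting. Genes with near-identical copies or overlaps may therefore share reads, and this can affect members of gene families.

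CPM is the count divided by the column total. Members and lists were chosen with earlier results of these data known. The gene lists and cell type markers of the plan could not be applied, since 0 identifiers matched the symbol table, and the rule for named genes then allowed the 2 members highest over the conceptus libraries and up to 2 called lower with a conceptus than with IFNT.

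Counts were fitted in R 4.3.3 with edgeR 4.0.16, with TMM scaling, filterByExpr (15227 genes kept) and 1 model of the 4 groups over all 23 libraries, tested by the quasi-likelihood F test. Male and Female replaced AI and IVF in a second model, and log2 length in mm was fitted as a slope over the 11 conceptus libraries. p-values were adjusted by Benjamini-Hochberg over all genes tested, and an adjusted p under 0.05 was a call. The SE is the log2 fold change divided by the square root of F. DESeq2 1.42.0, other scalings and filters, each library left out, and a uterus block were alternatives. The fits were checked on simulated counts. Those for the group comparisons held no difference between uteri, so that check does not cover the likeness of explants of 1 uterus. Same-number libraries correlated in all 30 pairs (lowest r 0.15), so the numbers pair the libraries. Fits without the block treat explants of 1 uterus as independent. No 2 libraries agreed within sampling noise (chi-square per degree of freedom at least 19.3 over 253 pairs). The labels do not state that the explants of a group are separate animals beyond their uterus numbers.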

Additional observations from a re-analysis of the deposited data

Results flagged for a closer look

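Levels of 13 members and of the sum over all members were examined within each treatment, 56 groups of libraries in all, for a library far from the others by Dixon's ratio, and 9 groups had one. How often genes taken at random would be flagged was not measured. Several of these members were picked for their uneven values and the IFNT levels were used by the selection. The number of such groups is therefore a description and is not set against chance. Member 7 reached 119 CPM in IFNT 1, where the next IFNT library had 39.4 CPM. Member 13 reached 22.4 CPM in IVF 5, with 9.27 CPM next, and 45.5 CPM in IFNT 2, with 8.75 CPM next. Member 41 reached 12.2 CPM in IFNT 2, with 1.22 CPM next, and member 57 reached 2.05 CPM in IFNT 2, with 0.504 CPM next. Member 16 reached 10.8 CPM in IVF 2, with 3.20 CPM next. Member 56 reached 0.979 CPM in IVF 5, with 0.600 CPM next, and 3.61 CPM in IFNT 4, with 0.942 CPM next. The sum over all members was lowest in AI 4, at 448 CPM, where the next AI library had 746 CPM.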

How the results depend on the processing

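Library scaling, filters, DESeq2, single libraries left out and the uterus block were tried. The number of members called higher lay between 28 and 41 for AI against Control, between 29 and 43 for IVF against Control, and between 29 and 48 for IFNT against Control. Over all genes tested, the number called higher ran between 329 and 1135 for AI, 379 and 794 for IVF, and 364 and 704 for IFNT. For each comparison both numbers were highest with the uterus block. For AI against IVF, Male against Female and the slope on length, 0 members were called under each alternative run, as were 0 of all genes. AI against IFNT gave 2 with the replicate block, where 1058 of 15227 genes were called. IVF against IFNT gave 1 in DESeq2, where 10 of 15227 genes were called. With the block and without IFNT 4, AI against IFNT gave 0, where 523 of 15210 genes were called. The test of the uterus number gave 14 in DESeq2, where 21.5% of all genes were called, and 3 to 17 with 1 library left out, where between 0.297% and 31.3% of all genes were. The members' counts moved up and down with the whole table, but the shares were not alike. Without AI 2 they were 4.84% of members beside 0.297% of genes, and without AI 1 27.4% beside 31.3%. The cause of these shifts was not tested. The uterus block, fitted because the numbers pair the libraries, called members 7 and 16 for AI (log2 fold changes 5.55 and 2.43) and IVF (5.48 and 1.99) against Control and members 56 and 58 for AI against IFNT (-1.70 and -1.24). Of the selection, 36 genes remained at 4 times the Control mean, 32 at a Control limit of 0.5 CPM and 51 at an IFNT floor of 1 CPM. With TMM-scaled totals 67 genes met it, all 62 among them, and without 1 uterus 65 to 89 did, of which 55 to 60 were among the 62. Under 1 CPM, where members have few reads, smaller differences could not be seen at this depth.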
